A study of Mus musculus with 8 samples.

Results

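Hnf4a and Hnf4g, which encode the hepatocyte nuclear factors HNF4 alpha and HNF4 gamma, were followed in RNA-seq libraries of embryonic mouse kidney. The 2 genes were taken by symbol as the HNF4 family, and both are among the 24151 genes listed. All embryos were of the ICR stock. The 8 libraries comprise, at each of 4 stages every other day from E12.5 to E18.5, 1 library with the agent CPF (chlorpyrifos, an organophosphate insecticide) and 1 with DMSO, its solvent. Dams of 8 weeks of age received CPF under the skin at 5 mg per kg per day, or DMSO, from gestation day 7.5 to 11.5, so that dosing ended before the earliest kidneys were taken. The number of animals or litters behind a library was not stated in the sources at hand.

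HNF4 proteins are orphan nuclear receptors with zinc fingers that bind DNA as homodimers at direct repeats spaced by a single base, called DR1 sites. HNF4A is best known from liver, where it drives genes for apolipoproteins, clotting factors and gluconeogenesis. In the kidney it is found in the proximal tubule, the segment that recovers filtered glucose, amino acids, phosphate and protein through a brush border of microvilli. HNF4G is a paralogue known mainly from intestine, where it acts together with HNF4A, and it is also expressed in kidney tubules.

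Values are TPM, a transcript level scaled by transcript length and by the library's total, which can be compared between genes. Each library holds 1 RefSeq row for Hnf4a (NM_008261) and 1 for Hnf4g (NM_013920). This matters here because genes that RefSeq lists with several transcripts were close to 0 (their median over 4777 genes was 0.142 TPM, whereas the 19374 genes that have a single transcript had a median of 3.64 TPM) and are not read as low. The step between low values implies a depth of 19.6 to 27.7 per library, in units of 1000000 reads. Coding transcripts took 72.7 to 73.9% of the TPM in CPF libraries and 53.3 to 75.1% in DMSO libraries, lowest in DMSO at E18.5. Comparisons that rest on the DMSO library of E18.5 therefore depend on the scaling, and values scaled to coding transcripts are given for the main ones. All 14 nephron progenitor genes listed, Six2 and Sall1 among them, were detected in all 8 libraries, with summed levels of 357 to 537 TPM with CPF and 509 to 758 TPM with DMSO, lower with CPF at each stage. Of these 14, 12 had an estimate below 0 for CPF minus DMSO across stages, whereas 72.6% of all tested genes had one above 0. The median was -0.60 log2 units beside 0.15 for all tested genes. With limma 0 of the 14 passed the test at an adjusted p under 0.05, beside 0.161% of all tested genes. At an unadjusted p under 0.05, 7 were lower, beside 9.55% of all tested genes in either direction.

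Hnf4a lies on chromosome 2 (163506811 to 163572907 on the plus strand, GRCm38). The transcript linked to its row starts at 163547188 and has 10 exons. RefSeq now lists 3 curated transcripts for the gene, and it has long been known to use a distal and a proximal promoter. The upstream sequences of both start sites in the RefSeq promoter table (GRCm38.p6) are shown because the single deposited row cannot tell transcripts of the distal start, at 163506857, from those of the proximal start, at 163547155. Each line holds the bases before the start in lower case and the first transcribed base as a capital.
Hnf4a distal start: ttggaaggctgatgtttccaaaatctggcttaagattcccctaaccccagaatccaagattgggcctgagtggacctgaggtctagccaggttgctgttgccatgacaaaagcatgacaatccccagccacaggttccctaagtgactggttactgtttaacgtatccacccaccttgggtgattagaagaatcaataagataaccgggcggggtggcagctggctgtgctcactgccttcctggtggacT
Hnf4a proximal start: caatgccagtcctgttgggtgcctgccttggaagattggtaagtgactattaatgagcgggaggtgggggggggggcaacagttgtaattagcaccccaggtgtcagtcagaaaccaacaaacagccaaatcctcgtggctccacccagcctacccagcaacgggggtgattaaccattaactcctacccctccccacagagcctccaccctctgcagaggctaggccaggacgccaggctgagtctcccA
Hnf4g lies on chromosome 3 (3508030 to 3659800, plus strand, GRCm38), and its linked transcript also has 10 exons.

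The letters that HNF4 proteins are known to prefer, CAAAGTCCA, and the DR1 letters shared with other receptors such as the retinoid X receptors, CAAAGGTCA, were searched on both strands from 250 bases before to 50 bases after each start. The 2 motifs differ in their letters, so a match to one is never a match to the other. CAAAGTCCA was found in 156 of 32851 promoters (0.475%) and CAAAGGTCA in 157 (0.478%). Neither was found in the 2 Hnf4a promoters. The table held promoters for 42 of 51 proximal tubule genes, and 2 of their 55 promoters held CAAAGTCCA and 0 held CAAAGGTCA. It held 30 promoters for 25 of 30 genes known as HNF4A targets in liver, of which 1 held CAAAGTCCA and 2 held CAAAGGTCA. These 5 matches, in the tubule and liver target lists, are shown as places where the letters of an HNF4 site occur, with the match in capitals between 8 flanking bases on each side.
Slc3a1, a cystine and dibasic amino acid transporter subunit of the tubule: tggctggaCAAAGTCCAgccatgat
Pdzk1, a scaffold of brush border transporters: tctttgtcCAAAGTCCAgtgagttc
Cyp8b1, the bile acid enzyme sterol 12-alpha-hydroxylase: cctctgagCAAAGTCCAagggcagg
F7, coagulation factor VII, on the reverse strand: ctccccccTGACCTTTGccctcccg
F9, coagulation factor IX: tctcctaaCAAAGGTCAtgaagcac
Counted from the start site, the match begins at -39 in Slc3a1, 15 in Pdzk1, -67 in Cyp8b1, -34 in F7 and -8 in F9. The start sites (GRCm38.p6) are chromosome 17 at 85028347 for Slc3a1, chromosome 3 at 96830065 for Pdzk1, chromosome 9 at 121916305 on the minus strand for Cyp8b1, chromosome 8 at 13026034 for F7 and chromosome X at 59999464 for F9, and the windows are written along the strand of the gene. Among the marker lists of other organs 1 further promoter held CAAAGTCCA, that of the intestinal mucin gene Muc13. A match is a description of the letters and not a site shown to be bound.

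Hnf4a was the abundant member, and its level climbed from E12.5 to E16.5 in both groups. In CPF kidneys it measured 0.742, 13.2, 55.9 and 182 TPM at the 4 stages from E12.5 to E18.5. In DMSO kidneys it measured 0.0370, 5.88, 28.5 and 28.04 TPM at the same stages. The CPF value was the higher at each of the 4 stages, a pattern that 13.8% of all 13677 tested genes share. In TPM the DMSO values of E16.5 and E18.5 were alike, while the CPF value continued upward over those days. Scaled to coding transcripts, Hnf4a stood at 76.5 and 246 with CPF and at 45.0 and 52.6 with DMSO at E16.5 and E18.5, so that DMSO then also went up, by less than CPF.

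These levels rest on an estimated 32, 611, 2991 and 7557 reads with CPF and 2, 259, 1831 and 2002 reads with DMSO. At E12.5 the 95% Poisson intervals were 0.510 to 1.05 TPM with CPF and 0.00449 to 0.134 TPM with DMSO, and did not overlap. At E16.5 and E18.5 in DMSO the intervals were 27.2 to 29.8 TPM and 26.8 to 29.3 TPM, which overlap. Scaled to coding transcripts they were 43.0 to 47.1 and 50.3 to 54.9, which do not. Such intervals cover counting error only, and with 1 library per stage and agent no value within a stage has a spread between animals.

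Hnf4g was scarce by comparison. In CPF kidneys it measured 0.145, 0.338, 4.02 and 4.11 TPM from E12.5 to E18.5. In DMSO kidneys it measured 0.0193, 1.203, 2.24 and 1.70 TPM. The largest step came between E14.5 and E16.5 with CPF and between E12.5 and E14.5 with DMSO. The length of its linked transcript did not give whole reads, so its smallest value was taken as 1 read. The estimate is then 6, 15, 207 and 164 reads with CPF and 1, 51, 139 and 117 reads with DMSO. These counts and all counting intervals of Hnf4g rest on that choice. The 2 last stages of Hnf4g had overlapping counting intervals in each group (3.49 to 4.61 and 3.50 to 4.79 TPM with CPF, 1.89 to 2.65 and 1.41 to 2.04 TPM with DMSO).

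The TPM of Hnf4a exceeded that of Hnf4g in all 8 libraries. The ratio of Hnf4a to Hnf4g was 5.12, 39.2, 13.9 and 44.3 with CPF from E12.5 to E18.5. With DMSO it was 1.92, 4.89, 12.7 and 16.48. The DMSO ratio grew at each stage, whereas the CPF ratio was larger at E14.5 than at E16.5. These ratios carry no counting interval. The DMSO ratio at E12.5 rests on 2 reads of Hnf4a and 1 read of Hnf4g, and the CPF ratio at E14.5 on 15 reads of Hnf4g. In DMSO the Hnf4g intervals of E16.5 and E18.5 overlap, as given above. At E16.5 both groups had nearly the same ratio.

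**Figure D1:**
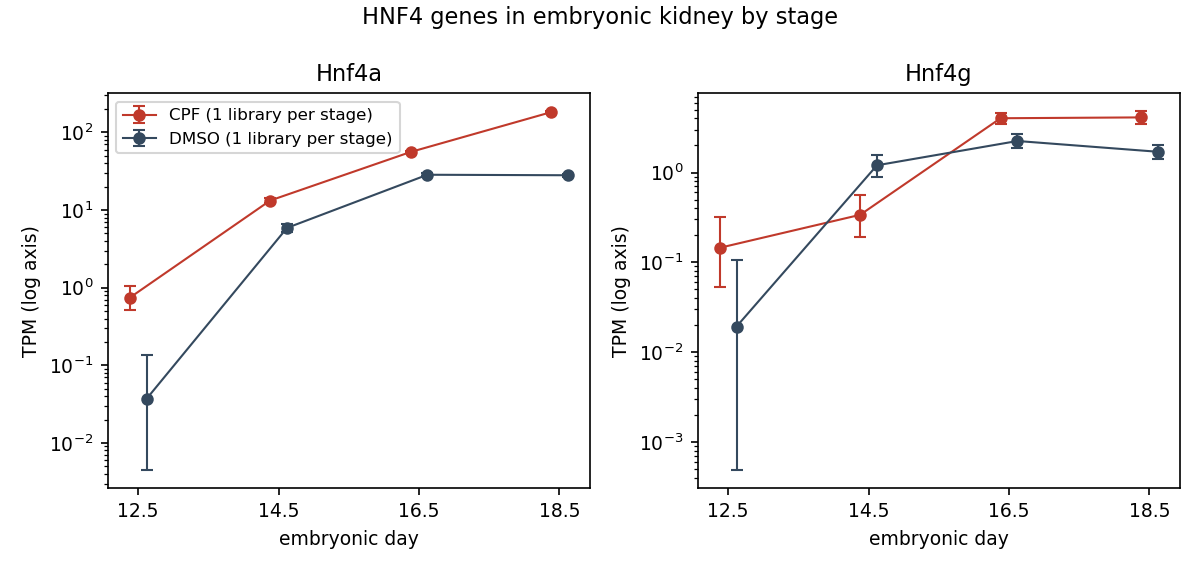
TPM (log axis) of Hnf4a (left) and Hnf4g (right) against embryonic day in CPF (red) and DMSO (dark blue) kidneys, 1 library per point, with bars for the 95% Poisson counting interval. Hnf4a with CPF lies above DMSO at each stage and reaches 182 TPM at E18.5, against 28.04 TPM with DMSO, while the Hnf4g lines cross, with 0.338 TPM for CPF and 1.203 TPM for DMSO at E14.5.

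Both genes rose with embryonic day when the 8 libraries were fitted together with limma on log2(TPM + 1), with agent as a term. Hnf4a rose by 0.97 ± 0.10 log2 units per day (SE, n = 8 libraries, limma adjusted p = 0.00100). Hnf4g rose by 0.33 ± 0.077 log2 units per day (limma adjusted p = 0.0233). Of all tested genes, 5.79% rose with embryonic day at an adjusted p under 0.05 and 6.72% fell, and the median slope was -0.033. The p-values rest on how far libraries lie from straight lines over days, and not on differences between animals. The rise of Hnf4g lost its call without the E12.5 CPF library (adjusted p = 0.104), the E18.5 CPF library (0.0727) or the E12.5 DMSO library (0.0518), whereas that of Hnf4a kept an adjusted p of 0.000622 to 0.00964 without any single library.

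Across stages Hnf4a was 1.35 ± 0.33 log2 units higher with CPF than with DMSO (SE, 4 stage pairs), and the difference did not pass the test (limma adjusted p = 0.142, unadjusted p = 0.00148). Only 0.161% of tested genes passed it in either direction, and 0.154% were higher with CPF. The call was gained under 3 of 12 alternatives, with an adjusted p of 0.0396 under a stricter filter on low values, 0.0375 with a pseudocount of 0.1 and 0.0295 without the E14.5 pair of libraries. Under the other 9 the adjusted p ranged from 0.0664 without the E12.5 pair to 0.967 with stage left out, and was 0.312 under quantile normalization and 0.520 with no filter. Hnf4g differed by 0.25 ± 0.32 log2 units across stages (limma adjusted p = 0.887), with a direction that turned to -0.029 under quantile normalization.

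By stage, the fold of CPF over DMSO for Hnf4a was 20.0 at E12.5, with a counting interval of 5.12 to 173 because it rests on 2 reads in DMSO. It was 2.25 at E14.5 (interval 1.95 to 2.62), 1.96 at E16.5 (1.85 to 2.08) and 6.49 at E18.5 (6.18 to 6.82). Scaled to coding transcripts, the folds were 20.4, 2.16, 1.70 and 4.68. On the log2(TPM + 1) scale Hnf4a was higher with CPF by 0.75, 1.05, 0.95 and 2.66 from E12.5 to E18.5, beside medians over all tested genes of -0.12, 0.027, 0.13 and 0.53. Scaling to coding transcripts moved that median at E18.5 to 0.16 and left Hnf4a higher with CPF by 2.21. Its difference was larger than that of 90.4, 94.3, 92.0 and 99.5% of tested genes at the 4 stages. More than a 2-fold excess with CPF was seen in 4.87% of genes that average 5 TPM or more at E14.5 and in 26.1% at E18.5, the stages at which Hnf4a passed that fold and that level.

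Hnf4g did not share this order. Its fold of CPF over DMSO was 7.52 at E12.5, with a counting interval of 0.914 to 346 on 6 reads with CPF and 1 read with DMSO. At E14.5 it was 0.281 (interval 0.147 to 0.508), at E16.5 1.79 (1.44 to 2.24) and at E18.5 2.41 (1.89 to 3.08). Hnf4g was thus lower with CPF at E14.5, where Hnf4a was higher. That stage has 1 library per agent, and the difference between stages was not tested. Scaled to coding transcripts, the folds of Hnf4g were 7.66, 0.269, 1.55 and 1.74.

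The slopes over embryonic day were 0.28 ± 0.20 log2 units per day steeper with CPF for Hnf4a (SE, limma adjusted p = 0.389) and 0.18 ± 0.15 for Hnf4g (limma adjusted p = 0.469), beside a median of 0.11 over all tested genes. Neither passed the test. With limma 0% of tested genes did at an adjusted p under 0.05, and 26.4% had an unadjusted p under 0.05. For Hnf4a the difference was -0.100 without the E18.5 DMSO library, 0.0019 with a pseudocount of 0.1 and 0.59 without the E12.5 DMSO library. For Hnf4g it was 0.0015 without the E18.5 DMSO library and 0.35 without the E12.5 DMSO library.

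Liver, pancreas and intestine also express HNF4 genes, so markers of these organs were set beside the members. The 20 liver markers summed to 244, 5568, 6654 and 1185 TPM with CPF from E12.5 to E18.5, and to 28.6, 1130, 79.9 and 50.4 TPM with DMSO. Of the 18 that were tested, all 18 were higher with CPF across stages, beside 72.6% of all tested genes. Alb, the albumin gene, measured 60.9, 1668, 2036 and 373 TPM with CPF and 3.89, 278, 5.77 and 2.03 TPM with DMSO. Ttr, the thyroid hormone carrier transthyretin, reached 221 TPM with CPF at E16.5, against 0.498 TPM with DMSO at that stage. Apoa1, the main apolipoprotein of HDL, reached 266 TPM with CPF at E16.5, against 1.78 TPM with DMSO. Between 1 and 3 of the 20 liver markers were listed at 0 in a library, among them Ahsg in all 8 and Serpina1a in 6, genes with 4 and 2 RefSeq rows.

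The 15 pancreas markers summed to 1915 TPM in the CPF library of E16.5 and to 46.2 TPM in the DMSO library of that stage, with 56.1 to 59.4 TPM in the other CPF libraries and 37.0 to 67.0 TPM in the other DMSO libraries. The amylase gene Amy2a5 and the acinar factor gene Ptf1a were listed at 0 in 7 of the 8 libraries each, and Ptf1a measured 8.92 TPM in the remaining one, CPF at E16.5. Ins2, with 3 RefSeq rows, was listed at 0 in all 8. The 14 intestine markers summed to 13.6, 47.7, 101 and 103 TPM with CPF and to 2.10, 20.2, 18.2 and 22.1 TPM with DMSO, and this list holds Vil1, which the proximal tubule also uses. The 12 erythroid markers summed to 36826, 17581, 923 and 37.4 TPM with CPF and to 8061, 4053, 597 and 69.3 TPM with DMSO. From E12.5 to E16.5 most of each sum was 1 globin gene, Hbb-y. It measured 33813, 15633, 521 and 4.07 TPM with CPF and 6940, 3738, 461 and 16.2 TPM with DMSO. The globin genes Hba-a1 and Hbb-bt were listed at 0 in all 8 libraries, and Hba-a2 and Hbb-bs at up to 0.434 and 0.317 TPM. The sums therefore do not follow all globin RNA. The liver sum was highest with CPF at E14.5 and E16.5. Hnf4a was highest with CPF at E18.5, where the liver sum was also higher with CPF than with DMSO. In a fit of only the E12.5 and E18.5 pairs, Hnf4a was 1.70 ± 0.71 log2 units higher with CPF (limma adjusted p = 0.940). The liver sum was also higher with CPF in each of those pairs, at 244 against 28.6 TPM and 1185 against 50.4 TPM. The part of other organs in the difference of Hnf4a between CPF and DMSO was not tested. In bulk tissue, more cells of a type and more RNA per cell cannot be told apart.

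**Figure D2:**
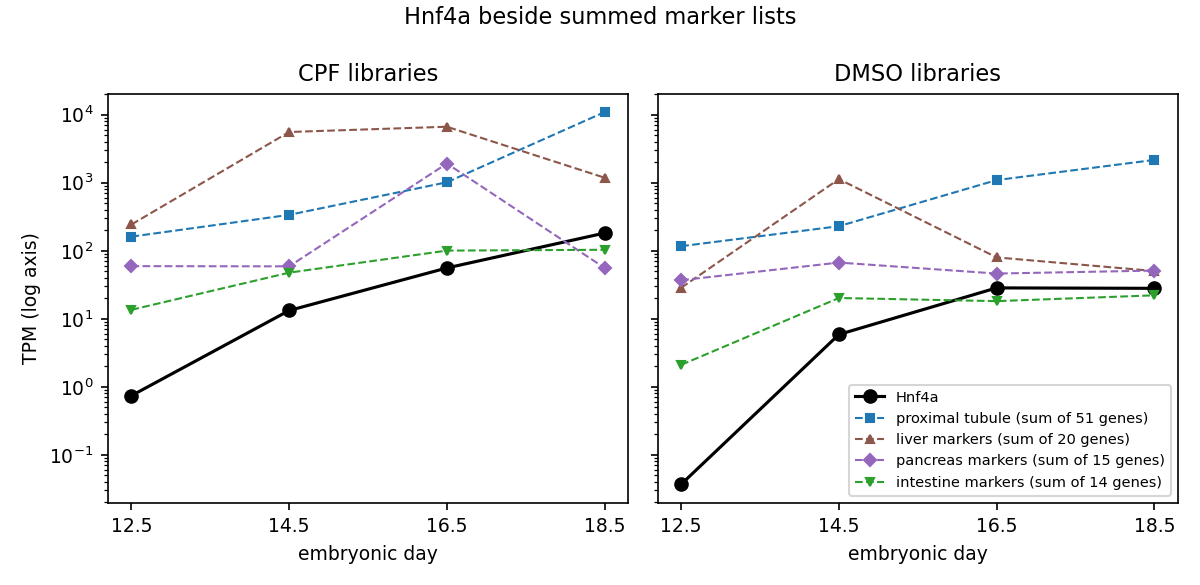
TPM (log axis) of Hnf4a (black) and summed TPM of the proximal tubule, liver, pancreas and intestine lists against embryonic day in CPF (left) and DMSO (right) libraries, 1 library per point. With CPF the liver sum peaks at 6654 TPM at E16.5, and Hnf4a and the proximal tubule sum are highest at E18.5. With DMSO the liver sum peaks at 1130 TPM at E14.5, and it lies below that of CPF at each stage.

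Genes of the proximal tubule rose with embryonic day together with Hnf4a. Of 51 listed genes 38 passed the filter on low values, and 32 of these 38 rose at an adjusted p under 0.05, beside 5.79% of all tested genes. The median slope of the 38 was 0.82 log2 units per day, beside -0.033 for all tested genes, of which 37.7% had a slope above 0. Spp2, a secreted phosphoprotein, rose by 1.197 ± 0.086 log2 units per day (limma adjusted p = 0.000435). Slc2a2, the basolateral glucose transporter GLUT2, rose by 0.81 ± 0.067 and the water channel gene Aqp1 by 0.70 ± 0.061 (limma adjusted p = 0.000489 for both).

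The scavenger receptor genes of the tubule showed the same climb. Lrp2, which encodes megalin, measured 5.84, 15.1, 83.1 and 1197 TPM with CPF and 9.91, 10.8, 106 and 211 TPM with DMSO. Cubn, its partner cubilin, measured 0.815, 2.60, 17.0 and 266 TPM with CPF and 0.822, 1.93, 24.1 and 48.6 TPM with DMSO. Slc34a1, the sodium-phosphate cotransporter of the proximal tubule, measured 0.0329, 1.56, 37.1 and 551 TPM with CPF, and 0, 0.866, 41.9 and 83.9 TPM with DMSO. For these 3 genes CPF and DMSO libraries were closest at E16.5 or earlier and far apart at E18.5, where the CPF value was the higher. Slc3a1, whose promoter holds CAAAGTCCA as shown above, measured 3.82, 2.33, 10.7 and 371 TPM with CPF and 1.37, 2.87, 19.3 and 75.7 TPM with DMSO, and rose by 0.95 ± 0.16 log2 units per day (limma adjusted p = 0.00934). Pdzk1 has 2 RefSeq rows and was listed at up to 1.24 TPM with CPF and 0.257 TPM with DMSO, values not read as low expression.

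Across stages all 38 proximal tubule genes had an estimate above 0 for CPF minus DMSO, beside 72.6% of all tested genes, and 0 of the 38 passed the test at an adjusted p under 0.05 with limma, while 9 had an unadjusted p under 0.05, as did 9.55% of all tested genes. Lrp2 differed by 0.48 ± 0.51 log2 units (limma adjusted p = 0.857), a difference that was -0.19 without the E18.5 pair. By stage, 28, 22, 17 and 38 of the 38 were higher with CPF from E12.5 to E18.5, beside 40.4, 52.6, 61.8 and 82.4% of all tested genes. The median log2 difference of the list was 0.27, 0.15, -0.12 and 2.30, beside -0.12, 0.027, 0.13 and 0.53 for all tested genes. The list's summed level was 161, 337, 1016 and 10918 TPM with CPF and 117, 230, 1094 and 2163 TPM with DMSO. At E18.5, scaled to coding transcripts, all 38 were still higher with CPF, with a median of 1.85, beside 62.6% of all tested coding genes and a median of 0.16. Other segments were also higher with CPF at E18.5, with 10 of 10 podocyte genes (median 2.01, coding-scaled 1.58) and 9 of 9 genes of the loop of Henle and distal tubule (1.79, coding-scaled 1.37). So were 16 of 16 early nephron genes (1.24) and 10 of 11 genes of the ureteric bud and collecting duct (0.90), beside 82.4% of all tested genes. Scaled to coding transcripts, these counts were 15 of 16 (median 0.81) and 9 of 11 (0.43), beside 62.6% of tested coding genes. Nephron progenitor genes went the other way, with 10 of 14 lower and 4 higher with CPF (median -1.02). Scaled to coding transcripts, 3 of the 14 were higher with CPF (median -1.51). The part of these differences in the result for Hnf4a was not tested.

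Set beside single tubule genes, Hnf4a had a high fold of CPF over DMSO at E16.5, which describes single libraries. At E16.5 its fold of CPF over DMSO, 1.96, was above that of all 31 proximal tubule genes that reach 5 TPM in both E18.5 libraries, whose median was 0.884 and whose highest was 1.89 for Slc2a2. Slc2a2 is also on the list of liver HNF4A targets. The CPF library of E16.5 had the highest liver and pancreas sums, 6654 and 1915 TPM, against 79.9 and 46.2 TPM with DMSO. The part of other organs in this fold was not tested. Among all 38 tested tubule genes 1 was above it, Slc13a3, a dicarboxylate transporter gene, at 2.39-fold, with 2.90 TPM with CPF and 1.22 TPM with DMSO. At E18.5 its fold of 6.49 lay among theirs, with 10 of the 31 above it, 21 below it and a median of 5.47. Scaled to coding transcripts, the folds of Hnf4a and the tubule median at E16.5 were 1.70 and 0.765 with 0 of the 31 above Hnf4a. At E18.5 they were 4.68 and 3.95 with 10 above. At E12.5, where Hnf4a rests on 2 reads in DMSO, 22 of the 31 had a fold, with 1 above Hnf4a and 21 below it. The rest of the 31 were listed at 0 with DMSO and above 0 with CPF at that stage. They have no finite fold and cannot be placed below Hnf4a. Hnf4g, at 1.79 and 2.41, was high among the 31 at E16.5 and low among them at E18.5.

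**Figure D3:**
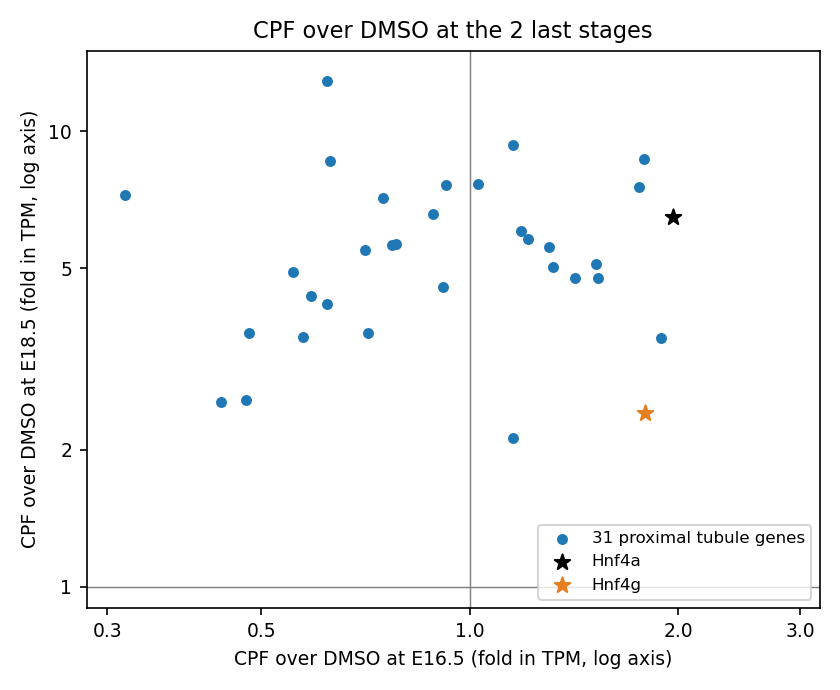
Fold of CPF over DMSO in TPM at E18.5 (vertical, log axis) against the fold at E16.5 (horizontal, log axis) for 31 proximal tubule genes (blue points), Hnf4a (black star) and Hnf4g (orange star), from 1 library per agent and stage. Hnf4a lies furthest to the right at 1.96 while its E18.5 fold of 6.49 lies within the cloud of tubule genes, whose median is 5.47. The CPF library of E16.5 also has the highest liver and pancreas sums, and their part was not tested.

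The course within each group was also read as a share of the E18.5 level. In CPF kidneys Hnf4a at E16.5 stood at 30.7% of its E18.5 level, where the 31 tubule genes had a median of 9.18% and 2 of them were higher. In DMSO kidneys Hnf4a at E16.5 stood at 101% of its E18.5 level, where the tubule genes had a median of 49.97% and 2 were higher. Scaled to coding transcripts, these DMSO shares were 85.6% for Hnf4a and 42.1% for the tubule median, again with 2 higher. Among all 38 tested tubule genes 5 were higher with CPF and 6 with DMSO. The highest share at E16.5 belonged in each group to Osr2, a transcription factor gene of early tubules, with 78.1% in CPF and 243% in DMSO. At E14.5 Hnf4a stood at 7.28% with CPF and 21.0% with DMSO, with 6 of the 31 above it in each group. At E12.5 it stood at 0.408% with CPF and 0.132% with DMSO, near the middle of the tubule genes with CPF (16 above, 15 below).

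**Figure D4:**
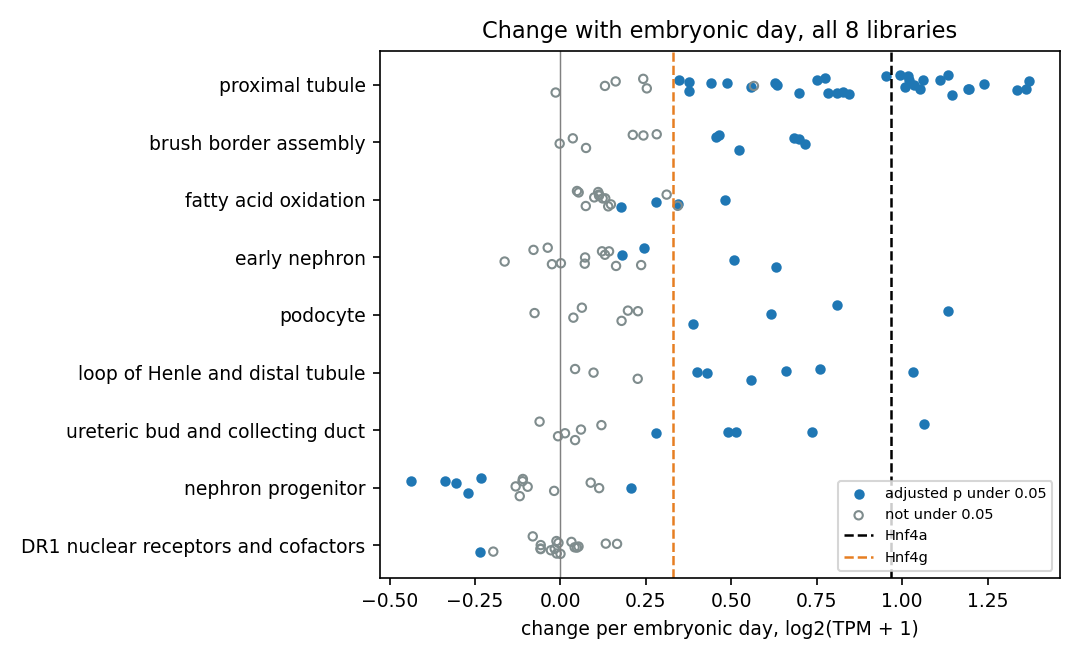
Change per embryonic day in log2(TPM + 1) units for the tested genes of 9 lists, 1 point per gene, filled where the limma adjusted p was under 0.05, with dashed lines at Hnf4a (0.97) and Hnf4g (0.33). The proximal tubule list has 32 of 38 filled points to the right of 0, whereas the nephron progenitor list has 5 filled points to the left of 0 and 1 to the right.

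Of 18 listed genes that build the brush border 12 were tested, and 6 rose with embryonic day, beside 5.79% of all tested genes. That count fell to 3 without the E18.5 CPF library and was 9 without the E12.5 DMSO library. Cdhr2, a protocadherin that links neighbouring microvilli, rose by 0.70 ± 0.079 log2 units per day (limma adjusted p = 0.00100). Anks4b, its scaffold partner, rose by 0.68 ± 0.090 (limma adjusted p = 0.00221). Vil1, the actin bundler villin, rose by 0.72 ± 0.097 and Myo7b, the myosin of the tip complex, by 0.46 ± 0.099 (limma adjusted p = 0.00273 and 0.0184). Myo7b lost its call without the E12.5 CPF or the E18.5 CPF library (adjusted p = 0.0835 and 0.0667).

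In CPF kidneys Vil1 measured 2.12, 2.52, 24.5 and 86.4 TPM, and in DMSO kidneys 0.675, 2.16, 12.49 and 13.3 TPM. Its DMSO values at E16.5 and E18.5 were close in TPM, as for Hnf4a, and its CPF value was the higher at each stage. Scaled to coding transcripts, Hnf4a in DMSO rose between those stages, as given above. Across stages 11 of the 12 genes had an estimate above 0 for CPF minus DMSO, beside 72.6% of all tested genes. With limma 0 of the 12 passed the test, beside 0.161% of all tested genes, and 3 had an unadjusted p under 0.05, beside 9.55%. The 2 most abundant were Ezr, the membrane-actin linker ezrin, at 0.59 ± 0.32 log2 units (limma adjusted p = 0.641), and Slc9a3r1, the scaffold NHERF1, at 0.52 ± 0.32 (limma adjusted p = 0.694). The list's median difference at the 4 stages was -0.0080, 0.17, 0.41 and 1.98, and 1.55 at E18.5 when scaled to coding transcripts.

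Fatty acid oxidation is a main fuel pathway of the mature proximal tubule. Of 17 tested genes (18 listed) 4 rose with embryonic day, beside 5.79% of all tested genes, and the median slope was 0.13 log2 units per day. Acaa1b, a peroxisomal thiolase, rose by 0.48 ± 0.091 (limma adjusted p = 0.00968). Acadm, the medium-chain acyl-CoA dehydrogenase, rose by 0.34 ± 0.069 (limma adjusted p = 0.0138). Acaa2, a mitochondrial thiolase, rose by 0.18 ± 0.041 and Cpt1a, which admits long chains to mitochondria, by 0.28 ± 0.073 (limma adjusted p = 0.0219 and 0.0366). The count of 4 became 9 on coding-scaled values, 8 under quantile normalization, 1 without the E12.5 CPF library, 2 without the E18.5 CPF library and 7 without the E12.5 DMSO library. Without the E12.5 CPF library the adjusted p was 0.0679 for Acadm, 0.111 for Acaa2 and 0.134 for Cpt1a, and without the E18.5 CPF library 0.0685 for Acaa2 and 0.112 for Cpt1a. The call of Cpt1a was lost under 6 of 14 alternatives.

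Across stages 16 of the 17 had an estimate above 0 for CPF minus DMSO, beside 72.6% of all tested genes. With limma 0 of the 17 passed the test, beside 0.161% of all tested genes, and 6 had an unadjusted p under 0.05, beside 9.55%. The 2 most abundant were Echs1, the enoyl-CoA hydratase, at 0.21 ± 0.24 log2 units (limma adjusted p = 0.857), and Acaa2 at 0.52 ± 0.21 (limma adjusted p = 0.454). All 17 were higher with CPF at E18.5, where 82.4% of all tested genes were, and all 17 when scaled to coding transcripts, where 62.6% of tested coding genes were.

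Of 30 genes known as HNF4A targets in liver 18 were tested, and 2 of the 18 rose, beside 5.79% of all tested genes. Both are also on the proximal tubule list. They were Slc2a2 and Pck1, the gluconeogenic enzyme PEPCK, which rose by 1.02 ± 0.18 log2 units per day (limma adjusted p = 0.0104). The median slope of the 18 was 0.027, and 9 were above 0. Cyp8b1, F7 and F9, whose promoters hold a motif as shown above, stayed under 1 TPM in all 8 libraries and were not tested. In CPF kidneys Pck1 measured 0.271, 0.180, 6.28 and 215 TPM, and in DMSO kidneys 0, 0.0377, 10.1 and 16.7 TPM.

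For CPF minus DMSO all 18 liver targets had estimates above 0, beside 72.6% of all tested genes. Their median was 2.22 log2 units, beside 0.15 for all tested genes. With limma 15 of the 18 were higher at an unadjusted p under 0.05, beside 9.55% of all tested genes in either direction. Of the 18, 1 passed the test, beside 0.154% of all tested genes that were higher with CPF. It was Apom, the apolipoprotein M gene, which was 1.92 ± 0.32 log2 units higher with CPF (limma adjusted p = 0.0495). Apom measured 9.10, 81.9, 105 and 66.9 TPM with CPF and 4.31, 24.4, 11.1 and 17.1 TPM with DMSO. The call of Apom was lost under 8 of 12 alternatives, and the count of targets called ranged from 0 to 10 when a stage pair was left out, with 10 without the E14.5 pair. With the E14.5 and E16.5 pairs both left out, the count was 6. The median difference of the 18 at the 4 stages was 0.67, 1.70, 4.41 and 2.39 log2 units, and that of the liver markers, whose sums are given above, was 1.93, 2.02, 5.55 and 3.11. These medians are not independent, because Apoa1, Apoa2, Apob, Apoh, Ttr, F2, Hpx and Serpina1b are on both lists. The part of liver RNA in the target list was not tested.

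Other receptors bind DR1 sites as partners or competitors, and cofactors act with HNF4 there. Of 27 such genes listed, 18 were tested. At an adjusted p under 0.05, 0 rose with embryonic day, beside 5.79% of all tested genes, and 1 fell. With limma 1 of the 18 had an unadjusted p under 0.05 for a rise and 2 for a fall, beside 29.4% of all tested genes in either direction. The one that fell was Nr2f1, which encodes the orphan receptor COUP-TFI, by 0.24 ± 0.052 log2 units per day (limma adjusted p = 0.0185), beside 6.72% of all tested genes that fell. Its call was lost without the E12.5 DMSO or the E18.5 DMSO library (adjusted p = 0.0528 and 0.0829). In CPF kidneys Nr2f1 measured 43.1, 31.3, 35.6 and 22.0 TPM, and in DMSO kidneys 87.9, 42.8, 33.9 and 18.8 TPM. It was highest at E12.5 and lowest at E18.5 in both groups, where Hnf4a was lowest at E12.5.

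Nr2f2, the COUP-TFII gene, has 2 RefSeq rows and is given only by its listed values of 10.2 to 14.1 TPM with CPF and 15.8 to 26.5 TPM with DMSO. Nr2f6, the related receptor EAR2, measured 71.1, 50.03, 106 and 111 TPM with CPF and 127, 83.4, 102 and 87.1 TPM with DMSO. It differed by -0.29 ± 0.24 log2 units across stages (limma adjusted p = 0.800). Crebbp, the acetyltransferase CBP that HNF4A can recruit, differed by 0.12 ± 0.23 (limma adjusted p = 0.923), with a sign that turned under quantile normalization and coding scaling. For CPF minus DMSO 0 of the 18 passed the test with limma, beside 0.161% of all tested genes. In each direction 1 had an unadjusted p under 0.05, beside 9.55% of all tested genes in either direction.

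Nr0b2, the small heterodimer partner that represses HNF4A in liver, measured 0.542, 1.52, 3.34 and 0.561 TPM with CPF and 0, 0.0881, 0.121 and 0.272 TPM with DMSO, with its highest level at E16.5 in CPF, the stage of the highest liver sum. Rxra has 3 RefSeq rows and was listed at 0.129 to 0.369 TPM with CPF and 0.0944 to 0.396 TPM with DMSO. Ppara has 2 rows, listed at up to 0.0426 TPM with CPF and 0.0661 TPM with DMSO. Ppargc1a, the coactivator PGC-1 alpha, has 2 rows and was listed at 0 in all 8 libraries. The low values of these 3 genes are not read as low expression.

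The genes whose course over the 8 libraries was most like that of Hnf4a were taken by the smallest root mean square difference between log2(TPM + 1) courses, each centred on its own mean, among 9102 named genes that average 5 TPM or more. They were Tmem52b, Slc47a1, Fmo1, Slc27a2 and Clic5, at 0.467 to 0.649 log2 units, where the median over all genes compared was 2.41. Slc47a1 encodes the organic cation extruder MATE1, Fmo1 a flavin monooxygenase, Slc27a2 a fatty acid transport protein and Clic5 an intracellular chloride channel protein known from podocytes. Tmem52b, a transmembrane protein gene and the nearest, measured 2.14, 9.10, 38.1 and 158 TPM with CPF and 0.168, 9.29, 28.5 and 36.8 TPM with DMSO. Unlike Hnf4a it had nearly equal CPF and DMSO values at E14.5. Slc47a1 measured 0.732, 4.27, 21.3 and 169 TPM with CPF and 0.154, 2.93, 21.0 and 28.5 TPM with DMSO.

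The nearest courses to Hnf4g were those of Car8, Ifitm3, Vstm4, Krt8 and Dll1, at 0.243 to 0.272 log2 units, where the median was 0.942. Car8 is a carbonic anhydrase-related gene, Krt8 a keratin of simple epithelia and Dll1 a Notch ligand of early nephrons. Car8 measured 2.24, 3.04, 8.45 and 11.3 TPM with CPF and 1.61, 3.48, 5.38 and 6.40 TPM with DMSO. Like Hnf4g, Car8 was lower with CPF at E14.5 and higher at the other stages. The 5 names depend on the scale. Of the 5 nearest to Hnf4a, 5 were kept on coding-scaled values, 4 under quantile normalization and 2 with a pseudocount of 0.1, and of the 5 nearest to Hnf4g, 3, 2 and 0 were kept.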

How the data were processed

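RNA-seq of 8 kidney libraries was read as TPM per RefSeq transcript, 32862 rows each, as deposited by the authors. Per the submitters' processing notes, Trimmomatic and STAR were used with mm10. Their versions, and the tool that assigned reads to transcripts, are not given in the sources used here. Transcripts were summed per symbol into 24151 genes, after 27 symbols listed as dates or numbers had been restored through RefSeq. TPM keeps no depth, so 1 read was estimated as the step of which most low values are whole multiples (62.3 to 66.4% within 0.05), worth 0.0610 to 0.105 TPM in 1 kb. Without replicates or counts, precision within a stage is counting error only, with 95% exact Poisson intervals.

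The fits used limma 3.58.1 in R 4.3.3, with a mean-variance trend and robust moderation, on log2(TPM + 1) for 13677 genes with at least 1 TPM in at least 2 libraries, a scale that understates the change of low genes. CPF was compared with DMSO with stage as a term, so the spread is how the difference varies between the 4 stages. The slope over embryonic day had agent as a term, and an agent by day term asked whether slopes differ. P-values were adjusted by Benjamini and Hochberg across the 13677 genes, and a call is an adjusted p under 0.05. The procedure was also run on data simulated from its own fitted model with independent normal noise. Such data cannot show how the fit handles differences in scaling or tissue content between libraries. The test was planned in a form for counts and one for normalized values, and the TPM took the second.

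The members and gene lists were chosen with earlier results of these data known. Genes named in the text were Hnf4a and Hnf4g, 13 genes always given, for each described list the called members of lowest p (4 at most) or else the 2 of highest mean, and the 5 nearest courses to each member. A gene that this rule names is not reported here. Cyp8b1, F7, F9 and Pdzk1 are named for their motif, and Slc13a3, Osr2, Muc13, Ahsg and other markers with extreme or 0 values were named after their values were seen. The alternatives were quantile normalization, scaling to coding transcripts, no filter, a filter of 5 TPM, a pseudocount of 0.1, leaving out CPF at both E14.5 and E16.5, the fits without each library or stage pair, stage left out, and embryonic day as a covariate. For CPF minus DMSO, leaving out CPF at E14.5 and E16.5 removed the DMSO libraries of these stages as well. Promoters came from the RefSeq table, which held 1 of the 2 members.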

Additional observations from a re-analysis of the deposited data

Results flagged for a closer look

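Hnf4g was lower with CPF than with DMSO at E14.5, by -0.72 on the log2(TPM + 1) scale, and higher with CPF at the other 3 stages. It is listed because its difference at this stage has the opposite sign to those at the others. It rests on 15 estimated reads with CPF and 51 with DMSO, in 1 library each, and the difference between stages was not tested.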

How the results depend on the processing

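Hnf4a rose with embryonic day under all 14 alternatives, by 0.85 to 1.14 log2 units per day when 1 library was left out. Hnf4g rose by 0.31 to 0.42 when 1 library was left out, with the call lost in 3 of those fits, and was not tested under the filter of 5 TPM. The number of genes called for embryonic day, 1711, was 961 with no filter and 554 to 1737 when 1 library was left out.

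For CPF minus DMSO across stages, Hnf4a was stronger under the filter of 5 TPM (1.35, adjusted p = 0.0396) and with a pseudocount of 0.1 (1.86, adjusted p = 0.0375), kept an adjusted p of 0.0664 to 0.967 under the 9 alternatives that did not call it, and ranged from 0.92 to 1.55 when a stage pair was left out. Hnf4g was -0.029 under quantile normalization and 0.026 to 0.57 when a stage pair was left out. The 22 genes called became 0 under quantile normalization (1485 with an unadjusted p under 0.05), 7 on coding-scaled values and 0 with no filter (1537 unadjusted). They became 98 under the filter of 5 TPM, 83 with a pseudocount of 0.1 and 34 with the E14.5 and E16.5 pairs both left out. They became 0 with stage left out (656 unadjusted), 0 with embryonic day as a covariate (1262 unadjusted) and 25 to 221 when a stage pair was left out. The cause was not tested.

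The slope difference of Hnf4a ranged from -0.10 to 0.59 when 1 library was left out and was -0.100 without the E18.5 DMSO library, and that of Hnf4g from 0.0015 to 0.35. Genes called for slope difference were 0 in all fits. With a stage pair left out, CPF minus DMSO ranged from -0.19 to 0.87 for Lrp2, from -0.033 to 0.38 for Echs1 and from -0.093 to 0.32 for Crebbp, each lowest without the E18.5 pair, and Crebbp was -0.063 under quantile normalization and -0.055 on coding-scaled values.

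Stage pairs each CPF library with a DMSO library and is a term of the CPF minus DMSO fit, and the labels carry no replicate numbers for any other pairing. The depth limits E12.5 most, where the DMSO values of Hnf4a and Hnf4g rest on 2 reads and 1 read.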
